A study of Mus musculus with 7 samples.

Results

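The myeloid C-type lectin receptors described here are 10 genes, taken by name from a table of 35641 genes: Clec4a1, Clec4a2, Clec4a3, Clec4d, Clec4e, Clec4n, Clec5a, Clec7a, Clec10a and Clec12a. All 10 were found, each as 1 row. The series sequenced RNA of lung cells labelled neutrophils and gated as CD45+ CD11b+ Ly6Clo Ly6G+, from female C57BL6 mice, in 4 HF and 3 LF libraries. The labels do not spell out HF or LF and give no age, diet or treatment, and the title of the series names obesity and oxidative stress. Values are normalized counts, which are gene counts divided by 1 size factor per library. The reads assigned to genes came to between 13943173 and 18983351 per library.

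C-type lectin receptors are surface proteins with which myeloid cells sense sugars and lipids of microbes and material from damaged cells. Activating members signal through immunoreceptor tyrosine-based motifs, carried by the adaptors FcRγ and DAP12 or, for Dectin-1, by the receptor's own tail, to the kinase SYK and from there to CARD9, BCL10 and MALT1 and to NF-kB. Inhibitory members recruit phosphatases such as SHP-1. In mouse, neutrophils, monocytes, macrophages and dendritic cells carry different sets of these receptors.

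The cell type markers bear on every comparison and were examined first. Of 14 neutrophil markers, 13 were higher in HF, and their summed level was 432058 to 588002 in HF but 12926 to 14352 in the LF-labelled libraries. S100a8, a calprotectin subunit of neutrophils, stood at 36659 to 50022 in HF and 66.4 to 74.3 in the LF-labelled libraries. Ly6g, the gene of the Ly6G sort marker, stood at 4431, 1301, 2378 and 4944 in HF1 to HF4 and at 0.749, 0 and 8.22 in LF6 to LF8. Among the 15 markers of monocytes and interstitial macrophages, 11 were at a lower level in HF and none rose (0 higher), with summed levels of 30471 to 42532 in HF and 138291 to 143812 in the LF-labelled libraries. Of 13 dendritic cell and MHC class II markers, 9 were lower and 1 was higher, with sums of 13511 to 31871 and 77161 to 92840. Ms4a7 and Xcr1, counted as lower in these 2 lists, had HF means under 10, so the filter fixed their direction too. The LF-labelled libraries thus went against the Ly6G+ sort, and they are named by their label throughout. Cell make-up and group cannot be told apart in this design, and in sorted bulk RNA fewer cells of a type cannot be told apart from less RNA per cell.

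The remaining marker lists were of cells that a Ly6G+ gate should leave out, and of platelets. Of 12 alveolar macrophage markers, 10 were tested, with 3 higher, 3 lower, and sums of 12483 to 36638 in HF and 25734 to 29016 in the LF-labelled libraries. Marco was at 0 in every HF library and in LF7 and LF8, and was not tested. Siglecf stood at 1129 to 1432 in HF and 19.5 to 89.3 in the LF-labelled libraries (log2 difference 4.86 ± 0.44, SE; limma adjusted p = 4.65e-05). Fabp4 was not called, at 141 to 395 and 296 to 312 (limma adjusted p = 0.443). Of 13 T and NK cell markers, 0 passed the limma test, with sums of 2105 to 2918 and 2553 to 4569. Of 8 B cell markers 7 were tested and 1 was higher, with sums of 5334 to 11063 and 6879 to 7659. Of 8 measured markers of eosinophils, basophils and mast cells 2 were higher, with sums of 950 to 1425 against 68.2 to 191. The 2 were Ccr3, at 748 to 1082 in HF and 43.8 to 134 in the LF-labelled libraries, and Il5ra, at 63.9 to 269 and 14.2 to 29.3. Mcpt8 was not called, and was at 0 in HF2, HF4 and the LF-labelled libraries. Of 8 measured platelet markers 6 were higher (1108 to 4063 against 180 to 381).

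All 10 receptor genes differed between the groups, 6 higher and 4 lower in HF, and none had overlapping groups. Across the 14936 tested genes, 55% passed the same test (limma, adjusted p under 0.05), with 26.2% of all tested genes higher and 28.7% lower in HF, and 62.2% had groups that did not overlap. The 10 log2 differences ran from -7.35 to 5.87 with a median of 1.2, while the middle of all tested genes lay between -1.40 and 0.99 (quartiles) around a median of -0.16. The HF mean of Clec10a was under the filter of 10 normalized counts, so 9 genes passed the filter in both groups and Clec10a entered through its level in the LF-labelled libraries. The filter thus fixed the direction of Clec10a, which is 1 of the 4 lower genes. The 10 genes took 0.358 to 0.444% of assigned reads in HF and 0.256 to 0.278% in the LF-labelled libraries.

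**Figure D1:**
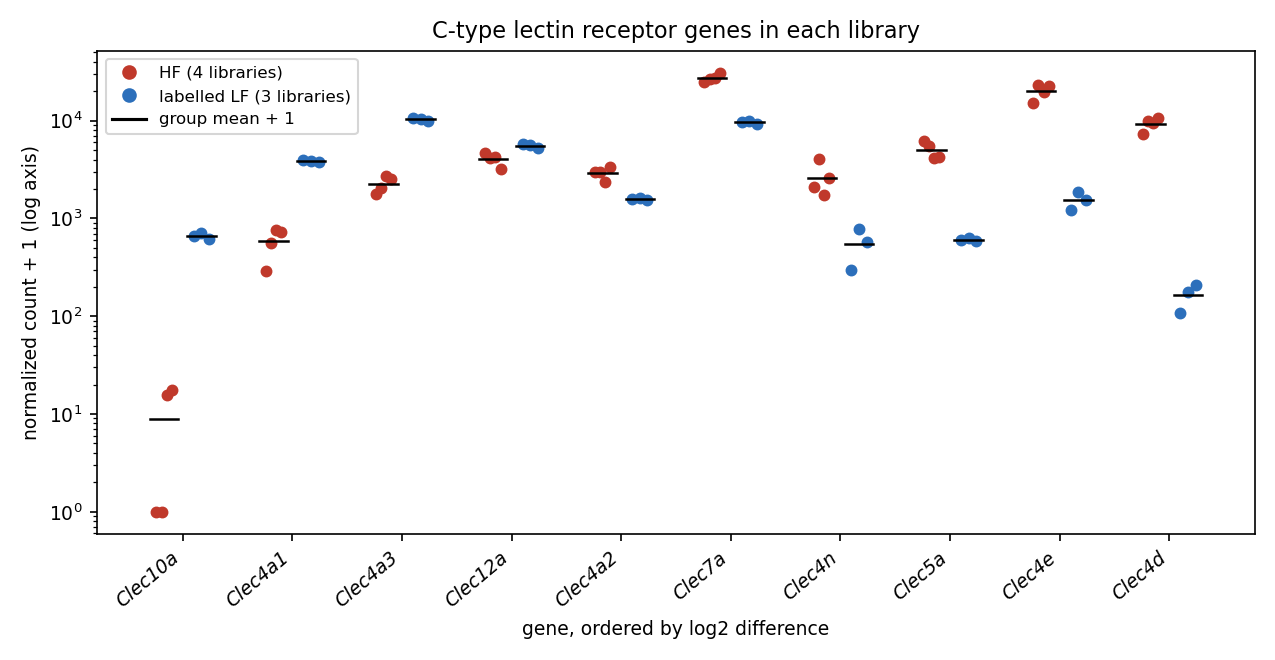
Normalized counts plus 1 (log axis) of the 10 receptor genes in each library, with HF libraries in red, LF-labelled libraries in blue and a line at each group mean. The groups are apart for every gene, with Clec10a at 0 in 2 HF libraries and Clec4d between 106 and 208 in the LF-labelled libraries.

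The receptors of the Mincle group were among the genes raised in HF. Clec4e encodes Mincle, which binds the mycobacterial cord factor trehalose dimycolate and signals through FcRγ. It stood at 15178, 23459, 19762 and 22606 in HF1 to HF4 and at 1234, 1872 and 1541 in LF6 to LF8. Every HF library was above every LF-labelled library, with means of 20251 ± 3733 (SD, n = 4) and 1549 ± 319 (SD, n = 3), a ratio of 13.1 and a log2 difference of 3.71 ± 0.18 (SE; limma adjusted p = 1.52e-06).

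Clec4d encodes MCL, which pairs with Mincle and also couples to FcRγ. Its counts were 7329, 9892, 9441 and 10687 in HF and 106, 176 and 208 in the LF-labelled libraries. This was the greatest increase of the 10, a ratio of means of 57.1 and a log2 difference of 5.87 ± 0.23 (SE; limma adjusted p = 5.07e-07). Of all tested genes, 98.8% had a smaller log2 difference.

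Clec4n encodes Dectin-2, an FcRγ-coupled receptor for fungal mannans. Its counts were 2084, 4023, 1719 and 2605 in HF and 300, 774 and 571 in the LF-labelled libraries. HF2 was the highest library and LF6 the lowest, and the groups stayed apart. The log2 difference was 2.28 ± 0.37 (SE; limma adjusted p = 0.00123), and the ratio of means was 4.76.

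Clec5a and Clec7a, which signal by other routes, were also higher in HF. Clec5a encodes MDL-1, which couples to DAP12 and, in mouse, also to DAP10. It stood at 6181, 5467, 4182 and 4277 in HF and at 598, 629 and 586 in the LF-labelled libraries. The log2 difference was 3.04 ± 0.15 (SE; limma adjusted p = 1.49e-06), with HF1 the highest library and the 3 LF-labelled libraries within 1.07-fold of each other.

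Clec7a encodes Dectin-1, the receptor for fungal beta-glucans. Its counts were 24878, 27013, 27151 and 30994 in HF and 9613, 9851 and 9322 in the LF-labelled libraries. It was the most even of the 10 within HF, with a coefficient of variation of 9.25%. The log2 difference was 1.52 ± 0.07 (SE; limma adjusted p = 1.49e-06). It was 0.995 with equal totals and 0.579 after quantile normalization, higher in HF and past the threshold in both.

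**Figure D2:**
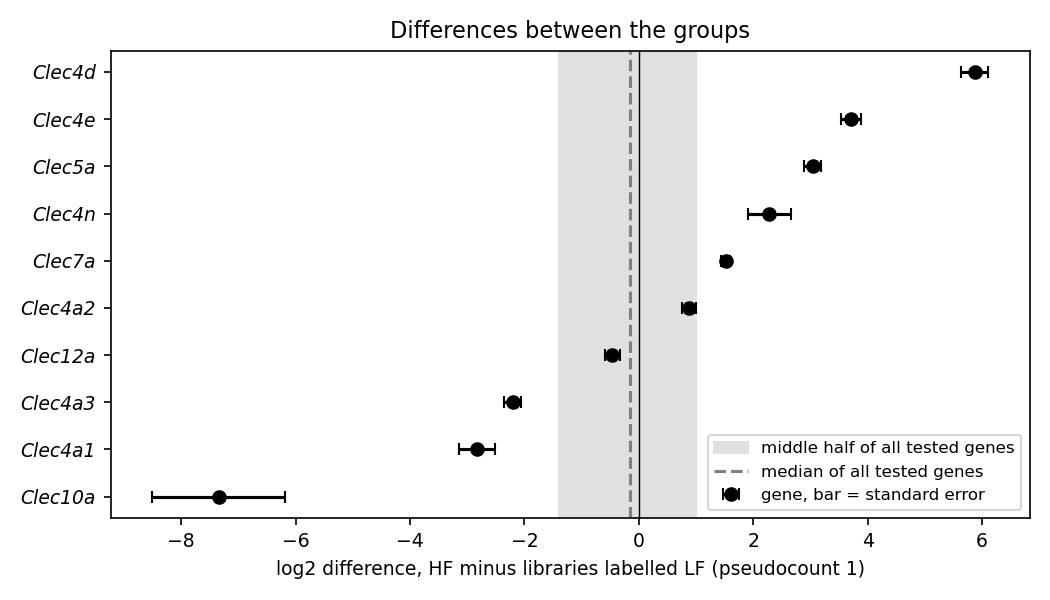
Log2 difference of each receptor gene (HF minus LF-labelled libraries, pseudocount 1) with its standard error, against the median (dashed) and quartiles (grey band) of all tested genes. Clec4d, Clec4e, Clec5a, Clec4n and Clec7a lie above the band, Clec4a1, Clec4a3 and Clec10a below it, and Clec4a2 and Clec12a inside it.

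The genes of the DCIR group split. Clec4a2 encodes DCIR, an inhibitory receptor with a tyrosine-based inhibitory motif. It was higher in HF, at 2958, 2985, 2344 and 3375 against 1576, 1623 and 1531, a log2 difference of 0.87 ± 0.13 (SE; limma adjusted p = 0.000597). The increase shrank to 0.355 when library totals were made equal (limma adjusted p = 0.0336), and quantile normalization gave 0.577.

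Clec4a1 and Clec4a3, whose synonyms are Dcir4 and Dcir3, went the other way. Clec4a3 stood at 1766, 2060, 2692 and 2540 in HF and at 10740, 10348 and 9839 in the LF-labelled libraries. The log2 difference was -2.21 ± 0.15 (SE; limma adjusted p = 7.3e-06), and the mean of the LF-labelled libraries was 4.55 times that of HF. Clec4a1 stood at 286, 554, 757 and 734 in HF and at 4000, 3900 and 3788 in the LF-labelled libraries, a log2 difference of -2.84 ± 0.32 (SE; limma adjusted p = 0.000147). HF1 was the lowest HF library for both genes, and without HF1 the difference of Clec4a1 was -2.53.

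Clec12a encodes MICL, an inhibitory receptor that senses uric acid crystals of dead cells. Its counts were 4649, 4180, 4289 and 3193 in HF and 5810, 5600 and 5297 in the LF-labelled libraries, the smallest difference of the 10 at -0.46 ± 0.13 (SE; limma adjusted p = 0.0152). Without LF6 it did not pass (limma adjusted p = 0.0591, range 0.000106 to 0.0591 across alternatives). Equal library totals gave a difference of -0.98 and quantile normalization one of -1.17.

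Clec10a encodes MGL1, a receptor for galactose and N-acetylgalactosamine found on macrophages and dendritic cells. It stood at 0, 0, 14.6 and 16.7 in HF and at 659, 714 and 619 in the LF-labelled libraries. HF3 and HF4 held 13 reads each, and the 0 reads of HF1 and HF2 allow up to 3.46 and 3.86 normalized counts (3 reads, counting error only). The log2 difference was -7.35 ± 1.16 (SE; limma adjusted p = 0.000974), and the mean was 85.0 times higher in the LF-labelled libraries. Clec10a passed the filter of 10 through the LF-labelled libraries alone, so its direction was fixed by the filter. The dendritic cell and MHC class II list was looked at in the same way once its values were known. Cd74, H2-Aa, H2-Ab1, H2-Eb1 and Batf3 were also higher in HF3 and HF4 than in HF1 and HF2. The rest of the list, Irf8, Xcr1, Ciita, Zbtb46, Flt3, Ccr7, Itgae and Siglech, did not follow that order. Whether the markers bear on the Clec10a reads was not tested.

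The scaling moved the size of the differences but not their direction. Equal library totals moved the median of all tested genes by -0.51 and changed the share of calls that were higher in HF from 47.7% to 30.0%. Equal totals shift all genes nearly alike, so distances from the median of all genes hardly move by construction. Under quantile normalization those distances did move, from 1.68 to 0.66 for Clec7a, from 1.04 to 0.66 for Clec4a2 and from -0.30 to -1.09 for Clec12a, while Clec4d went from 6.03 to 5.87. None of the 10 changed direction under any of the 16 alternatives tried, though the filter of 10 had fixed that of Clec10a. The authors' deposited table gives log2 fold changes of the same signs, from -6.41 for Clec10a to 5.84 for Clec4d.

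Beside the differences between groups, the genes differed in how even they were within a group. In the LF-labelled libraries, the coefficient of variation was 43.4% for Clec4n, 31.8% for Clec4d and 20.6% for Clec4e, and 2.73 to 7.16% for the other 7 genes. The median over 3402 tested genes with a mean of at least 1000 over all libraries was 5.59%. Within the LF-labelled libraries the means of Clec4n (548), Clec4d (163), Clec5a (604) and Clec10a (664) were below that level. LF6 was the lowest library for Clec4n, Clec4d and Clec4e.

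Within HF the median coefficient of variation of the same abundant genes was 13%. Clec10a reached 116%, Clec4n 38.8% and Clec4a1 37.3%, and the other 7 lay between 9.25 and 19.2%. The HF means of Clec10a (7.81, from 26 reads) and Clec4a1 (583) were below the level of those abundant genes, so their spread is not comparable. HF1 was the lowest HF library for 5 of the 10 genes (Clec4a1, Clec4a3, Clec4d, Clec4e and Clec7a) and the highest for Clec5a and Clec12a.

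Levels of different genes were compared per kilobase of exon, with lengths from GENCODE M21, since the authors' annotation is not given in the sources used here. In HF the order of normalized counts per kilobase was led by Clec7a at 10428 ± 965 (SD, n = 4), followed by Clec4d at 5839 ± 897, whose range overlapped that of Clec4e at 4079 ± 752. Clec4n, Clec4a3, Clec5a, Clec4a2 and Clec12a followed in that order, and each overlapped its neighbour. Clec4a1 at 374 ± 140 and Clec10a at 2.70 ± 3.13 were last and apart from the rest.

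In the LF-labelled libraries the order per kilobase was another. Clec4a3 led at 7769 ± 340 (SD, n = 3), followed by Clec7a at 3637 ± 100, Clec4a1 at 2501 ± 68.2 and Clec12a at 1007 ± 46.7, each apart from the next. Clec4a2, Clec4n and Clec4e overlapped their neighbours, and Clec10a, Clec5a and, last, Clec4d at 102 ± 32.5 were apart.

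As shares of the summed normalized count per kilobase of the 10 genes, Clec4a3 made up 45.7 to 48.2% in the LF-labelled libraries and 5.34 to 7.63% in HF. Clec4a1 made up 14.7 to 15.3% in the former and 0.780 to 1.83% in HF. Clec7a made up 21.7 to 22% and 35.2 to 40.1%. Clec4d stood at 0.396 to 0.810% and 19.5 to 22.2%, and Clec4e at 1.48 to 2.21% and 13 to 16.2%. The share of Clec4a2 overlapped between the groups, at 3.20 to 3.26% and 3.02 to 4.30%, although its normalized count was higher in HF. The summed normalized counts per kilobase were 16070 to 17045 in the LF-labelled libraries and 23515 to 30056 in HF.

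**Figure D3:**
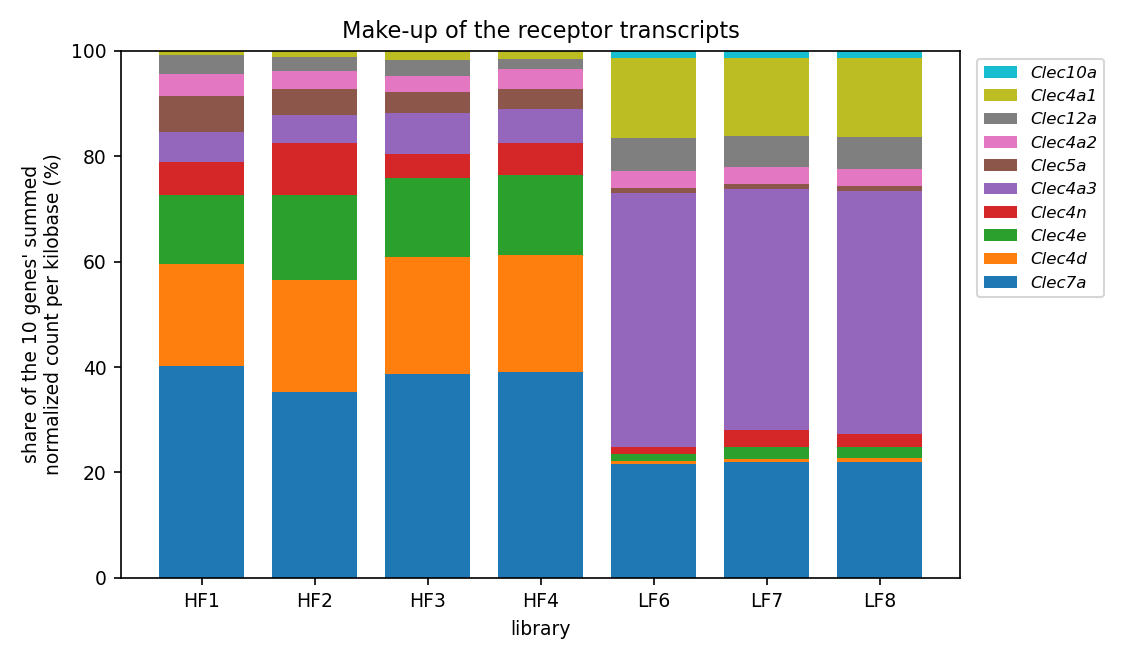
Share of each gene in the summed normalized count per kilobase of the 10 receptor genes, 1 stacked bar per library. Clec7a and Clec4d fill most of the HF bars, and Clec4a3 makes up 45.7 to 48.2% of the bars labelled LF.

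On chromosome 6 lie 9 of the 10 genes (Clec10a is on chromosome 11), and 6 of them share 1 stretch, which is known as part of the natural killer gene complex. In RefSeq's gene order from Clec4a1 to Clec4e the stretch also holds Clec4a4, Clec4b1 and Clec4b2 and 2 pseudogenes. The order of the tested genes is Clec4a1, Clec4a3, Clec4a4, Clec4b1, Clec4a2, Clec4b2, Clec4n, Clec4d and Clec4e. The first 4 had log2 differences of -2.84, -2.21, -0.77 and -3.45 and the last 5 of 0.87, 4.44, 2.28, 5.87 and 3.71. The change of sign thus fell at 1 place, between Clec4b1 and Clec4a2, a pattern that was noticed after the values were seen.

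In HF the 3 other genes of the stretch were much lower in count than the receptor genes there. In the LF-labelled libraries Clec4b1, with a mean of 391, was above Clec4d, with a mean of 163. Clec4b1, an activating receptor gene of the DCAR group, stood at 23.1, 81.0, 15.7 and 47.5 in HF and at 343, 476 and 353 in the LF-labelled libraries (log2 difference -3.45 ± 0.55, SE; limma adjusted p = 0.00101). Clec4b2 stood at 49.6, 36.0, 67.3 and 14.1 in HF and at 0, 0 and 4.11 in the LF-labelled libraries, where it had 6 reads in all (log2 difference 4.44 ± 0.89, SE; limma adjusted p = 0.00354). It passed the filter of 10 through its HF level alone, so its direction was fixed by the filter and adds nothing to the order of signs. Clec4a4 did not pass, at 53.9 to 105 in HF and 113 to 169 in the LF-labelled libraries (limma adjusted p = 0.0723). It passed when library totals were made equal (limma adjusted p = 0.0108) and without HF2 (limma adjusted p = 0.0443, range 0.0108 to 0.438 across alternatives).

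**Figure D4:**
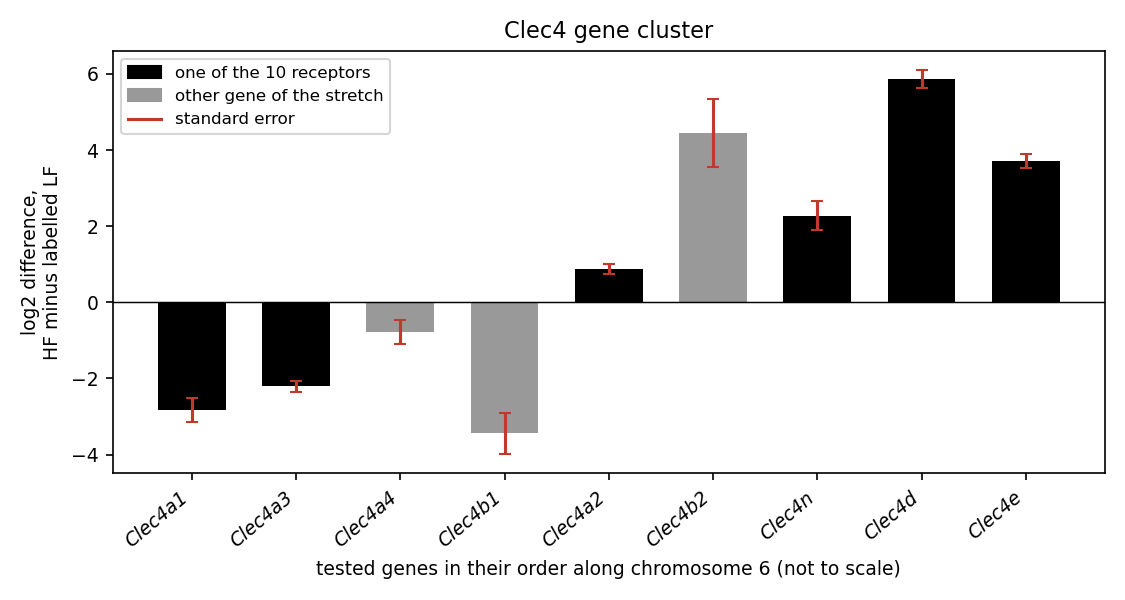
Log2 difference (HF minus LF-labelled libraries, pseudocount 1) with its standard error for the 9 tested genes from Clec4a1 to Clec4e in their order on chromosome 6, not to scale, with the receptor genes described here in black and other genes of the stretch in grey. The first 4 values are below 0 and the last 5 above it.

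Between Clec12a and Clec7a, the other pair of neighbours on this chromosome, the tested genes were Clec1b, Clec9a and Clec1a. Clec1a had 37.5, 51.8 and 58.9 normalized counts in the LF-labelled libraries and 98.8 to 210 in HF (log2 difference 1.47 ± 0.38, SE; limma adjusted p = 0.0113), a call lost with equal library totals (limma adjusted p = 0.0612, range 0.00125 to 0.0612 across alternatives). Clec9a, which encodes a dendritic cell receptor for dead cells, was low, at 11.2 to 41.1 in HF and 25.5 to 39.0 in the LF-labelled libraries (limma adjusted p = 0.276).

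Since neighbours of the Clec4 stretch moved in opposite directions, the bases before the start of 4 of the 10 receptor genes are shown. Among the receptor genes of that stretch they are the pair with the greatest increases and the pair with decreases. The sequences are RefSeq's for build GRCm38.p6, the 250 bases before the annotated start, 5′ to 3′ on the strand of the gene, at chr6:123261857-123262106 (+) for Clec4d, chr6:123289872-123290121 (-) for Clec4e, chr6:122921598-122921847 (+) for Clec4a1 and chr6:122952394-122952643 (+) for the downstream of the 2 starts of Clec4a3. Capitals mark the core of a PU.1 site (GAGGAA, or TTCCTC on the other strand) and the letters of a C/EBP site (TTGCNNAA, or TTNNGCAA). PU.1 and the C/EBP proteins are transcription factors of the myeloid lineage.
Clec4d: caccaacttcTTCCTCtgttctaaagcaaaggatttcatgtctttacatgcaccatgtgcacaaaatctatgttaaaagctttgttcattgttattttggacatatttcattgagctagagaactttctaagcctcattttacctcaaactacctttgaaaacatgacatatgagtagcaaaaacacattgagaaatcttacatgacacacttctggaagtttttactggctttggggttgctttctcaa
Clec4e: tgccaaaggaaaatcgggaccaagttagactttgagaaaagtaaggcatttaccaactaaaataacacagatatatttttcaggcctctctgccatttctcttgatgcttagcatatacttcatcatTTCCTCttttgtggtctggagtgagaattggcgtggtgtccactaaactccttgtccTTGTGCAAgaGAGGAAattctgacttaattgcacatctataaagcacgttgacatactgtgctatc
Clec4a1: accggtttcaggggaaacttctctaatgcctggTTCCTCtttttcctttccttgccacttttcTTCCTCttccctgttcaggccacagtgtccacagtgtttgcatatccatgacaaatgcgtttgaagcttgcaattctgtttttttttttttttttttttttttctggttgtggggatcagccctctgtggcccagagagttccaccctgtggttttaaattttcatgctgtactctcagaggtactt
Clec4a3: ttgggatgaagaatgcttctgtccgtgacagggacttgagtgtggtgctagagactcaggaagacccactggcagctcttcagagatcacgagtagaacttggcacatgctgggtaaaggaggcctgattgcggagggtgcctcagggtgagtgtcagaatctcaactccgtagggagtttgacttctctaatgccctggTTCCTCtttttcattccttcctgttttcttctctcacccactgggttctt
RefSeq windows were found for 8 of the 10 genes, and none for Clec4n and Clec10a. The PU.1 core letters were before 7 of these 8 genes, in 8 of their 10 windows, against 23.3% of all 32851 windows of that length, and the C/EBP letters were in 2, Clec4e and Clec12a, against 9.56% of all windows. The 2 windows of Clec7a overlap and hold the same match, and of the 2 of Clec4a3 only the one shown holds a match. The AP-1 letters TGANTCA were in 1, Clec12a, against 6.75% of all windows. No matches of the 3 motifs overlapped each other. In Clec4e the C/EBP match began 66 and a PU.1 match 56 bases before the start. Clec4a1 and Clec4a3 share the run cctggTTCCTCtttttc of 17 bases, the longest run that windows of any of these genes share. PU.1 letters were before genes that were higher and before genes that were lower in HF, and these matches are letters only, with no measure of binding in the files.

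Reads of near-identical genes were a possible concern for Clec10a and Clec4a2. In GENCODE M21, 9.02% of the 50-base windows of Clec10a transcripts occur in transcripts of other genes, most of them in its neighbour Mgl2. For Clec4a2 the share was 6.83%, with Clec4a4 first, and for the other 8 genes it was at most 0.686%. No other gene overlaps the exons of the 10 genes on either strand in that annotation. How the authors treated reads with several matches is not given in the sources used here. Mgl2, which encodes the related receptor MGL2, was also lower in HF, at 16.1, 0, 122 and 59.0 against 181, 751 and 246. It passed only just under the threshold (log2 difference -4.10 ± 1.52, SE; limma adjusted p = 0.0498).

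The adaptors and first kinases were mostly higher in HF under the authors' scaling. Of 18 tested genes of a list of 19, 13 were higher in HF, 2 lower and 3 not called, with a median log2 difference of 0.68. Over all tested genes 26.2% were higher and 28.7% lower with a median of -0.16, and the counts of this and the following lists are read beside these shares. With equal library totals 8 were higher and 4 lower, and after quantile normalization 4 were higher and 7 lower. The direction of this list therefore depends on the scaling.

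Tyrobp, the gene of DAP12, stood at 32226, 31920, 30976 and 33453 in HF and at 14908, 14327 and 14247 in the LF-labelled libraries. Its log2 difference was 1.15 ± 0.04 (SE; limma adjusted p = 4.53e-07), and it did not pass after quantile normalization (0.093, limma adjusted p = 0.121). Hcst, the gene of DAP10, had the largest increase of the list, from 428 ± 42.7 (SD, n = 3) in the LF-labelled libraries to 2486 ± 200.4 (SD, n = 4) in HF, a log2 difference of 2.54. Syk, the kinase that the activating receptors share, was higher by 1.17 ± 0.08 (SE; limma adjusted p = 1.02e-05), by 0.649 with equal totals and by 0.292 after quantile normalization. Fcer1g, the gene of FcRγ, picked once its values were known, was higher by 0.49 under the authors' scaling and at -0.0331 with equal totals and -0.442 after quantile normalization. Over these libraries the neutrophil markers had a median log2 difference of 9.95 and the monocyte and macrophage markers one of -2.15.

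**Figure D5:**
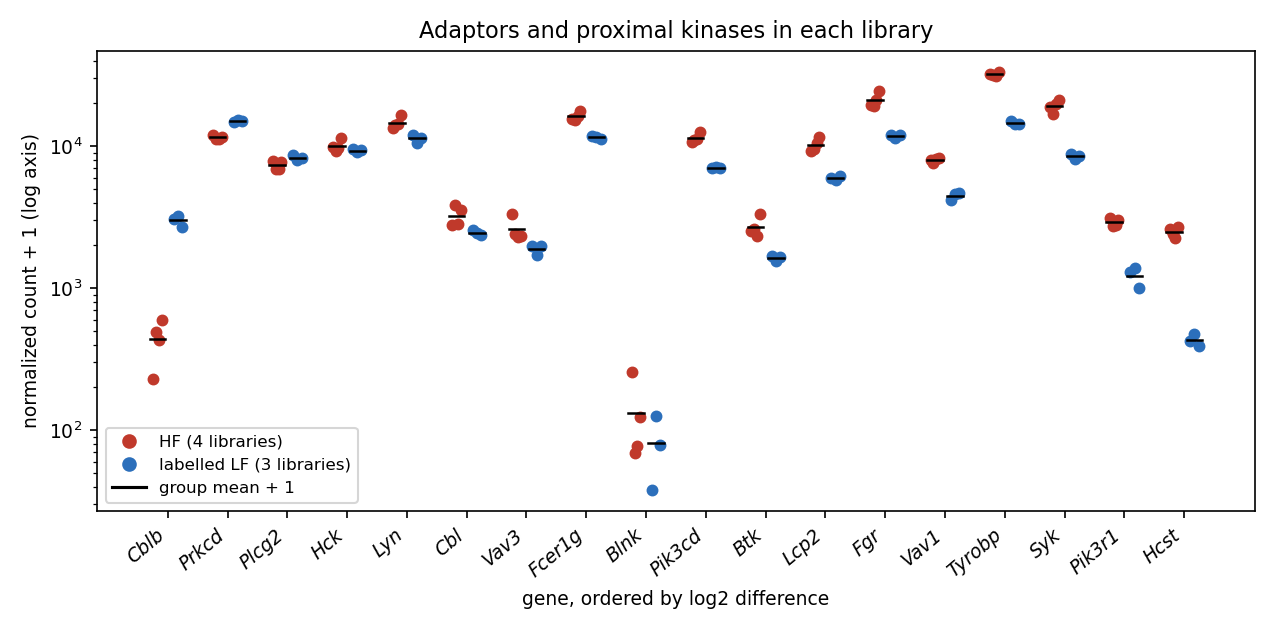
Normalized counts plus 1 (log axis) of the 18 tested adaptor and kinase genes in each library, HF in red and LF-labelled libraries in blue, with a line at each group mean. Hcst, Pik3r1, Syk and Tyrobp lie at the right with HF above, and Cblb at the left with HF below. The 13 genes higher in HF under the authors' scaling numbered 8 when library totals were equal and 4 under quantile scaling.

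Of the 24 genes of the list of CARD9, NF-kB, MAPK and NFAT genes, further along the pathway, 8 were higher in HF, 10 lower and 6 not called, with a median of -0.35. The shares over all tested genes were 26.2% higher and 28.7% lower, and whether the list differs from them was not tested. Without LF6 the lower genes numbered 5, and without LF7 or LF8 they numbered 6. The transcription factor gene Nfatc1 was higher by 1.2, by 0.681 with equal totals and by 0.459 after quantile normalization. The p38 kinase gene Mapk14 was higher by 1.04, by 0.52 with equal totals, and did not pass after quantile normalization (0.204, limma adjusted p = 0.0517). Ikbkb, a kinase of the NF-kB inhibitor, fell by 1.67 on the log2 scale (SE 0.09; limma adjusted p = 2.09e-06).

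Card9, which links SYK to NF-kB and was picked once its values were known, stood at 617, 922, 855 and 951 in HF and at 585, 481 and 440 in the LF-labelled libraries. Its log2 difference was 0.73 ± 0.19 (SE; limma adjusted p = 0.0124). It did not pass with equal library totals (limma adjusted p = 0.36) or without LF8 (limma adjusted p = 0.0553, range 0.00137 to 0.36 across alternatives).

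Of 10 genes of inhibitory phosphatases and regulators, 7 were higher and 2 lower, with a median of 0.61. With equal library totals 4 were higher and 4 lower, after quantile normalization 3 were higher, and without LF6 or without LF7 none was lower. Dusp1, a phosphatase of MAP kinases, had an HF mean of 86561 ± 6899 (SD, n = 4) and an LF-labelled mean of 22734 ± 568 (SD, n = 3), a log2 difference of 1.93, which was 0.897 after quantile normalization. Dok3, an inhibitory adaptor, was higher by 1.03, by 0.514 with equal totals and by 0.308 after quantile normalization. Ptpn6, the gene of SHP-1 that DCIR and MICL recruit, was higher by 0.75 under the authors' scaling (limma adjusted p = 3.63e-05), which was 0.226 with equal totals and turned to -0.248 after quantile normalization (limma adjusted p = 0.0141).

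Genes that these receptors are known to induce were higher in most cases. Of 12 tested genes of a list of 15, 8 were higher in HF, 1 lower and 3 not called, with a median of 2.70. The prostaglandin synthase gene Ptgs2 stood at 9689, 13358, 8680 and 9116 in HF and at 66.7, 93.1 and 121 in the LF-labelled libraries, a log2 difference of 6.78 ± 0.22 (SE; limma adjusted p = 2.17e-07). The inflammasome gene Nlrp3 was higher by 3.26 and Il1b by 5.21. The 1 lower gene, the monocyte chemokine Ccl2, was picked once its values were known and passed at a limma adjusted p of 0.0489. It did not pass without HF3, HF4, LF6, LF7 or LF8 (limma adjusted p = 0.0602 to 0.113). These genes have many other inducers, and the marker differences given above lie between the same libraries.

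The last lists hold other lectins. Of 21 other Clec genes in the table, 10 were tested, with 3 higher, 3 lower and a median of -0.47, and the other 11 were under the filter. Both shares were near the 26.2% and 28.7% of all tested genes. Clec1b, the platelet receptor CLEC-2, stood at 189, 312, 340 and 149 in HF and at 30.0, 21.8 and 21.9 in the LF-labelled libraries (log2 difference 3.22 ± 0.38, SE; limma adjusted p = 0.000191). It is also in the platelet list, 6 of whose 8 measured genes were higher in HF. Clec2i, a lectin-like ligand of natural killer cell receptors, had an HF mean of 192 ± 48.8 (SD, n = 4) and an LF-labelled mean of 2606 ± 174 (SD, n = 3) (limma adjusted p = 2.92e-06).

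Of 16 tested genes of other lectin receptors of myeloid cells, 4 were higher and 8 lower, with a median of -2.06. The lower genes numbered 5 without LF6, without LF7 or without LF8. The P-selectin gene Selp, made by platelets and endothelium, was higher by 3.76, and Thbd, the gene of thrombomodulin, was at -1.58 ± 0.21 (SE; limma adjusted p = 0.000431).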

How the data were processed

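Cells sorted from mouse lung gave 4 HF and 3 LF libraries. RNA was extracted in TRIzol LS and prepared with a SMART-Seq library kit, per the labels' protocols. STAR 2.6.1b, featureCounts 1.6.3 and DESeq2 1.20.0 appear in the submitters' processing notes. The genome build, annotation and strand setting were not given in the sources used here. The deposited signal of each gene is a normalized count, and 100% of these values were whole multiples (within 0.01) of what 1 read is worth. Further columns hold the authors' own log2 fold changes, p-values and a score (their test statistic), per the file headers, and any value taken from them is credited to that table. All library columns were mapped (0 unmapped). Columns LF6 to LF8 carry numbers that match no LF label, so each was taken as a library of that group with no number of its own.

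Genes averaging at least 10 were tested with limma 3.58.1 (R 4.3.3, trended prior, two-sided) on log2 values after adding 1 to the normalized count, a scale that understates the change of low genes. A gene with a mean under 10 in 1 group passed through the other group, which fixed its direction. Clec10a and counted genes of several lists were of this kind, such as Ms4a7, Xcr1, Gp9, Egr3, Clec2g and Cd209d. So were the neutrophil markers Ly6g, Camp, Ltf, Ngp and Stfa2l1. P-values were adjusted by Benjamini-Hochberg over all 14936 tested genes at a threshold of 0.05. The fits were tested on simulated data in which few genes changed, up and down alike, so the choice of scaling was not tested there. Alternatives changed the pseudocount (0.5, 5), the filter (none, or 50), the scaling (equal library totals, quantile) or the tool (edgeR 4.0.16, DESeq2 1.42.0, both run on the recovered reads), or dropped 1 library. With the authors' size factors, 7624 genes passed in edgeR. The median chi-square per gene between libraries of a group was 2.29 to 3.01 for LF and 12.2 to 16.2 for HF, where sampling noise gives 0.455. The design text counts mice, and the tests rest on how these libraries varied. The labels name no molecular identifiers, and counting floors cover counting error only.

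The 10 genes and the gene lists were chosen with earlier results of these data known. Besides the 10, the text names from each of 6 lists of pathway and lectin genes 3 genes (lowest p) and 1 gene (highest mean level), defining markers of cell types, neighbours on the chromosome, and genes said to be picked after their values were known. Some genes that this rule names are not reported here.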

Additional observations from a re-analysis of the deposited data

How the results depend on the processing

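Of 160 values of the 10 receptor genes under the 16 alternatives, 159 kept their direction and their side of the threshold. The exception was Clec12a without LF6 (limma adjusted p = 0.0591). The genes called numbered 9 or 10 of 10, and the calls over all genes ranged from 6432 to 8991 around 8211 (6432 to 8470 with a library left out). Of 414 values of 26 other genes, 394 kept direction and side, 15 lost a call, 2 gained a call and 3 turned. Those that turned were Ptpn6 after quantile normalization (-0.248) and Fcer1g, at -0.0331 under equal totals and -0.442 under quantile scaling. Counts of lists called in either direction stayed within 1.5 times of those reported, while the split of higher and lower did not. With equal totals the higher genes of the CARD9 list went from 8 to 5. Among the regulators 1 gene was lower (in place of 2) with no filter and by edgeR with the authors' size factors. The lower output gene was lost (0 in place of 1) under pseudocount 0.5, no filter, quantile normalization and edgeR. The lower genes of other lectin receptors numbered 5 in place of 8 by edgeR, and those of other Clec genes 5 in place of 3 with no filter or equal totals. Clec10a, with 26 reads in HF, ranged from -8.05 to -6.04. The size of its difference depends on the pseudocount, and its direction was fixed by the filter of 10. No paired analysis was possible because the LF columns carry no replicate number of the labels.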
